A study of Mus musculus with 9 samples.

Results

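Keratins are the intermediate filament proteins of epithelia. Krt7, Krt8, Krt18 and Krt19 encode keratins of simple (single-layered) epithelium, and Krt80 encodes a keratin of epithelial cells. The genes described here are these 5 keratins together with Synm and Vim, whose products build the non-keratin filaments of muscle and mesenchyme. They are 7 of the 38293 genes in the count table, and all 7 were among the 15318 genes with enough counts to be tested. They were chosen from earlier results of the same comparison of mutant with control hearts, so their levels in that comparison are given as a description and carry no test. RNA from whole ventricles at postnatal day 7 was sequenced from 5 libraries labelled Arid1a f/f control, which carry the floxed Arid1a gene without Cre, and 4 labelled αMHC-Cre;Arid1a f/f cKO, with the same floxed alleles plus the αMHC-Cre transgene. Per the study's methods the mice were kept on a C57B/6 J background, with pups of both sexes included. Arid1a encodes a DNA-binding part of the SWI/SNF remodeller of chromatin, and the αMHC promoter drives Cre in cardiomyocytes, so fibroblasts, endothelium and other ventricular cells keep the gene. Library totals lay between 31011055 and 40073801 counts. Levels below are counts per 1000000 counts of a library (CPM), and differences are log2 fold changes of cKO over control with their standard error (SE) from edgeR's quasi-likelihood fit.

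Keratin filaments form only when a type II keratin pairs with a type I keratin. Krt8 (type II) and Krt18 (type I) are the obligate partners of simple epithelia and among the earliest keratins of the embryo, while Krt7 (type II) and Krt19 (type I) are typical of ducts and of the mesothelium, the flat layer that covers the heart and lines the body cavities. Adult heart muscle instead relies on desmin, which ties the Z-discs to each other and to the cell membrane. Synemin is a large filament protein that joins desmin or vimentin filaments but cannot build filaments alone, and vimentin is the main filament of fibroblasts and endothelium.

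Krt8 and Krt18 are neighbours in the type II keratin cluster of chromosome 15. In GRCm38, Krt8 (ENSMUSG00000049382) lies at chr15:101996698-102004482 on the minus strand and Krt18 (ENSMUSG00000023043) at chr15:102028180-102032027 on the plus strand. Their annotated starts face each other across 23698 bases, and the genes are read in opposite directions. RefSeq promoter windows, 250 bases before to 50 bases after the start, were found for 5 of the 7 genes. Those of Krt8 (GRCm38.p6, chr15:102004293-102004592, minus strand) and Krt18 (chr15:102027966-102028265, plus strand) are shown because these are the genes that separated the groups most. Each is printed 5′ to 3′ along its gene, with matches to the TATA box motif (TATAAA, either strand) in capitals.
Krt8: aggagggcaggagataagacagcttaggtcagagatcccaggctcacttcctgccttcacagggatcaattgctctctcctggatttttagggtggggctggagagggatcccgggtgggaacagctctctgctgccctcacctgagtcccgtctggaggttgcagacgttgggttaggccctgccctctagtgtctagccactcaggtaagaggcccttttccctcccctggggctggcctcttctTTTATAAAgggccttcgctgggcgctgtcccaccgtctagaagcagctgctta
Krt18: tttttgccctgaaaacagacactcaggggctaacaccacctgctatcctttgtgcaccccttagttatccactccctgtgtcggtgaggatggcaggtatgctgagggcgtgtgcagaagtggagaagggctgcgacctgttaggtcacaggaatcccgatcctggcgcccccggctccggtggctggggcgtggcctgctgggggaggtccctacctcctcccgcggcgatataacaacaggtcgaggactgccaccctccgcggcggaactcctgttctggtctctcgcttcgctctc

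Of the motifs searched on both strands, TATAAA matched the Krt8 window at 2 overlapping places on opposite strands and the Vim window once. The leftmost Krt8 match began at base 248 of the window, −3 from the RefSeq start. The Vim match began at base 219, −32 from its start. TATAAA did not match the windows of Krt18, Krt7 or Synm, and 13.6% of all 32851 promoter windows of 300 bases hold it. The motif of TEAD factors (GGAATG), the AP-1 motif (TGANTCA) and the CArG box had 0 matches in the 5 windows. Of all windows, 14.7%, 7.81% and 1.63% hold them. GC content ran from 58.0% in the Krt8 window to 72.7% in the Synm window, with 61.3% for Krt18. The windows of Krt19 and Krt80 were not analysed here.

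The libraries themselves were checked before the comparison. Arid1a was at 139.8 ± 8.84 CPM (SD, n = 5) in control and 106 ± 5.44 CPM (n = 4) in cKO, with no overlap (log2 fold change −0.39, SE 0.06, edgeR adjusted p = 0.00132), under 1.5-fold. In the Rps3a3-low libraries described next the edgeR adjusted p was 0.0822. There the controls were at 142 and 128 CPM and cKO at 108, 113 and 100.3 CPM. The counts cover the whole gene in all ventricular cells, and the deleted exons were not counted apart. The libraries also fell into sets that the labels do not name: controls 1 and 2 with cKO 1 to 3 had 0.345 to 0.521 CPM of Rps3a3, and the other 4 had 99.7 to 112 CPM. The high set holds 3 of the 5 controls and 1 of the 4 cKO libraries, so set and genotype are partly confounded. Xist, the X-inactivation RNA, was abundant in controls 2 and 3 and in cKO 3 and 4, so both groups hold both sexes. The labels number the replicates without naming animals, and the study counts them as hearts.

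Krt8 and Krt18 were both higher in every cKO library than in any control library. Taking libraries in the order of their replicate numbers here and below, the 5 controls had 0.812, 0.637, 1.63, 0.661 and 2.30 CPM of Krt8, against 9.61, 19.2, 18 and 23.8 CPM for the 4 cKO libraries. The lowest cKO library still lay several-fold above the highest control, control 5. Its mean was 1.21 ± 0.733 CPM (SD, n = 5) in control and 17.7 ± 5.92 CPM (n = 4) in cKO, a log2 fold change of 3.87 (SE 0.42) or 14.6-fold. The control values rest on 21 to 71 counts a library and the cKO values on 309 to 984.

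Krt18 was at 6.83, 5.18, 8.34, 5.0 and 7.44 CPM in the controls and at 26.8, 40.3, 50.8 and 56.4 CPM in cKO. The same cKO library, replicate 1, was the lowest of its group for both genes and replicate 4 the highest. Its mean was 6.56 ± 1.44 CPM (SD, n = 5) in control and 43.6 ± 13.0 CPM (n = 4) in cKO, a log2 fold change of 2.73 (SE 0.23) or 6.64-fold. Within the Rps3a3-low libraries the log2 CPM difference of cKO from control was 4.27 for Krt8 and 2.66 for Krt18, and within the Rps3a3-high libraries, where cKO is replicate 4 alone, 4.07 and 3.05. In bulk tissue more cells of a type and more RNA per cell cannot be told apart.

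By the rule of the comparison, an adjusted p under 0.05 and over 1.5-fold, 2 of the 7 genes were called, Krt8 and Krt18, both higher. Among all tested genes 6.72% were called, 4.01% higher and 2.72% lower. The groups did not overlap for 3 of the 7, Krt8, Krt18 and Vim, against 16.7% of tested genes. Because the genes were selected on this contrast, nothing is read from these counts. No threshold on a measured value set the list. The median log2 fold change over all tested genes was 0.01.

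**Figure D1:**
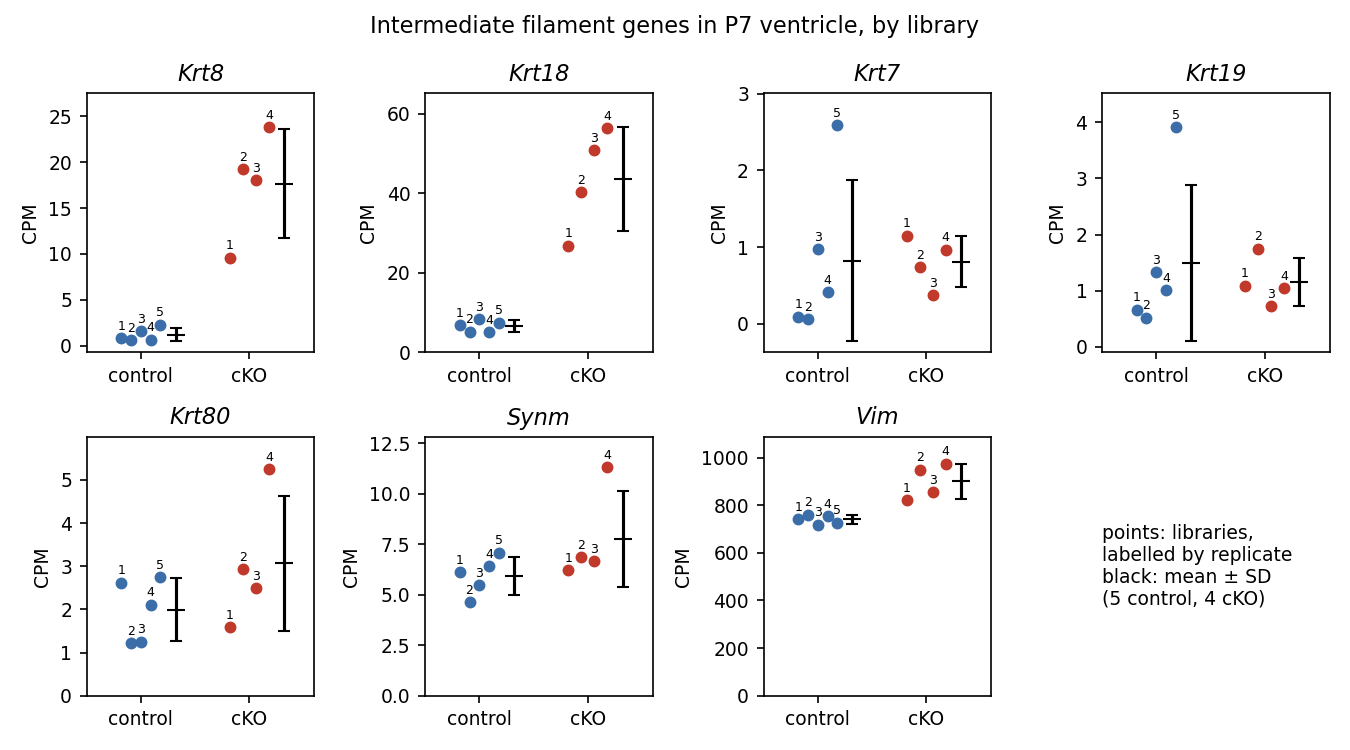
Level in CPM (y axis, linear, a separate scale for each gene) of the 7 genes in each library, with control in blue and cKO in red, points numbered by replicate, and the mean ± SD in black. Krt8 and Krt18 separate the groups by a wide gap, Vim by a narrow one, and for Krt7 and Krt19 control 5 is the highest library at 2.59 and 3.91 CPM.

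Levels of different genes were compared per kilobase of exon. In control ventricle Vim stood far above the rest at 156 ± 3.72 CPM per kb (SD, n = 5), followed by Krt18 at 4.56 ± 1.0. Krt19 (0.801 ± 0.750), Synm (0.749 ± 0.118) and Krt8 (0.617 ± 0.374) followed within their spread of each other, then Krt80 (0.311 ± 0.114) and Krt7 (0.117 ± 0.149). In cKO the order was Vim (189.7 ± 15.6, n = 4), Krt18 (30.3 ± 9.06), Krt8 (9.02 ± 3.03), Synm (0.979 ± 0.302), Krt19 (0.620 ± 0.232), Krt80 (0.480 ± 0.244) and Krt7 (0.115 ± 0.0473). Krt8 thus stood level with Synm in control and above it in cKO, while Krt19 and Krt80 lay within their spread of each other in cKO.

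The partners differed between the groups by unequal amounts. The ratio of Krt8 to Krt18 CPM per kb was 0.0873, 0.0902, 0.144, 0.0969 and 0.227 in the controls, against 0.263, 0.350, 0.260 and 0.310 in cKO. Krt18 RNA exceeded Krt8 RNA in all 9 libraries, and the ratio was higher in every cKO library, at 0.296 ± 0.0428 (SD, n = 4) against 0.129 ± 0.0594 (n = 5). Set against the main filaments of the tissue, Krt18 per kb was 2.94 ± 0.713% of Vim and 2.21 ± 0.559% of Des in control, and 15.9 ± 4.22% and 10.8 ± 2.78% in cKO.

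All keratin genes together made up 40.3, 43.2, 50.4, 45.8 and 55.1 CPM in the controls, against 74.5, 91.7, 107 and 116 CPM in cKO. Krt8 and Krt18 accounted for 16.5 ± 3.33% of this sum in control (SD, n = 5) and 61.9 ± 8.87% in cKO (n = 4). The table holds 54 keratin genes, of which 9 passed the filter on low counts and 25 had no count in any library. Apart from the 5 described, those that passed were Krt10, Krt20, Krt79 and Krt222. The other 45 reached at most 0.550 CPM, the level of Krt14 in control 5.

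**Figure D2:**
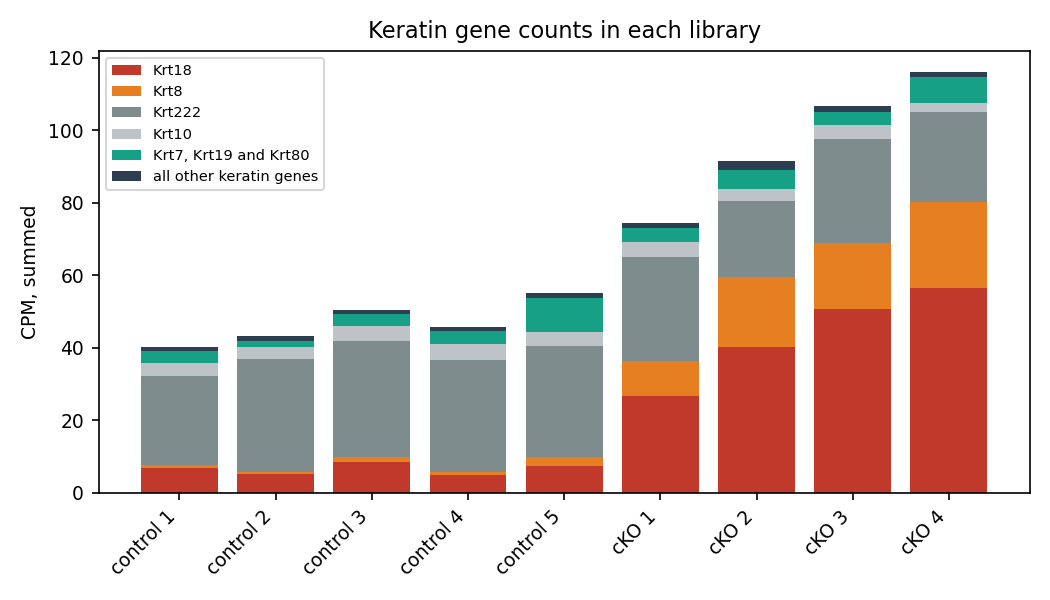
Summed CPM of keratin genes (y axis, linear from 0) in each library (x axis), stacked by gene. Krt222 is the largest block in the controls, whose totals lie between 40.3 and 55.1 CPM, while Krt18 and Krt8 fill most of the added height in cKO, whose totals lie between 74.5 and 116 CPM.

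Of the other keratins tested, Krt20, a type I keratin of gut and bladder lining, was the single called gene. It was at 0.211, 0.290, 0.0277, 0.346 and 0.129 CPM in control and at 0.529, 1.03, 0.492 and 0.605 CPM in cKO. The groups did not overlap, though on only 1 to 11 counts in a control library and 17 to 39 in a cKO library (log2 fold change 1.73, SE 0.47, edgeR adjusted p = 0.0263). The call was lost in 4 of 17 alternatives, among them the Rps3a3-low libraries alone (log2 fold change 1.45, edgeR adjusted p = 0.177), leaving out control 5 (1.61, edgeR adjusted p = 0.0647) and leaving out cKO 2 (1.43, edgeR adjusted p = 0.0937). Its log2 fold change lay between 1.43 and 2.0 in all of the alternatives. Krt222, the most abundant keratin gene of the controls by CPM, was at 29.8 ± 3.02 CPM (SD, n = 5) and 25.7 ± 3.72 CPM (n = 4) in cKO, a log2 fold change of −0.21 (SE 0.11, edgeR adjusted p = 0.216). Krt10, the type I keratin of upper epidermis, had a log2 fold change of −0.14 (SE 0.17, edgeR adjusted p = 0.619), and Krt79 of 0.42 (SE 0.33, edgeR adjusted p = 0.426).

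Krt7 and Krt19 showed another pattern, in which libraries differed more within groups than between them. Krt7 (ENSMUSG00000023039) was at 0.0903, 0.0579, 0.970, 0.409 and 2.59 CPM in the controls, against 1.15, 0.742, 0.377 and 0.968 CPM in cKO. The whole cKO range lay inside the control range. Its log2 fold change was −0.01 with an SE of 0.87, on 2 to 80 counts in a control library and 13 to 40 in a cKO library. Krt19 was at 0.662, 0.521, 1.33, 1.01 and 3.91 CPM in control and at 1.09, 1.75, 0.724 and 1.04 CPM in cKO, again inside the control range, with a log2 fold change of −0.36 (SE 0.55). Control 5 was the highest library for both, and controls 1 and 2 the lowest.

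Their group differences depended on the libraries. Within the Rps3a3-low set, which leaves controls 1 and 2 as the controls, the fitted log2 fold change was 3.29 (SE 0.71) for Krt7 and 1.01 (SE 0.45) for Krt19. Leaving out control 5 alone gave 1.06 (SE 0.68) for Krt7 and 0.38 (SE 0.35) for Krt19. Both values were above 0 for each gene under these alternatives, whereas Krt8 was at 4.43 and Krt18 at 2.71 in the Rps3a3-low set, and between 3.69 and 4.22 and between 2.58 and 2.91 with any library left out.

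Several mesothelial markers were high and low in the same libraries as Krt7 and Krt19. Upk3b, a uroplakin of mesothelial cells, was at 0.752, 0.261, 5.68, 2.42 and 23.0 CPM in control and 5.88, 3.10, 0.811 and 3.83 CPM in cKO. Msln, which encodes mesothelin, was at 2.11, 0.579, 8.59, 4.18 and 22.9 CPM in control and 7.09, 5.41, 0.927 and 6.37 CPM in cKO. Both were highest in control 5 and lowest in control 2, as Krt7 and Krt19 were. With group means removed, Pearson's r of log2 CPM over the 9 libraries was 0.98 between Krt7 and Upk3b, 0.94 between Krt7 and Msln, 0.91 between Krt19 and Upk3b and 0.91 between Krt7 and Krt19. Over the 10 epicardial and mesothelial markers in the table, r with Krt7 was 0.91 to 0.98 for Upk3b, Upk1b, Msln, Lrrn4, Bnc1 and Gpm6a, 0.79 for Rspo1, 0.70 for Tbx18, 0.41 for Aldh1a2 and −0.05 for Wt1. With Krt19 it was 0.87 to 0.91 for the same 6, 0.84 for Rspo1, 0.50 for Tbx18, 0.29 for Aldh1a2 and −0.22 for Wt1. The points share their library and its depth, and control 5 lies far from the rest, so these values are descriptions.

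For Krt8 the same r ran from −0.07 with Wt1 to 0.73 with Rspo1 over the 10 markers, with 0.62 for Upk3b and 0.59 for Msln, and was 0.67 with Krt7 and 0.72 with Krt19. For Krt18 it ran from −0.07 with Wt1 to 0.53 with Aldh1a2, with 0.17 for Upk3b and Msln, and was 0.23 with Krt7 and 0.22 with Krt19. Upk3b had a log2 fold change of −0.91 (SE 1.21, edgeR adjusted p = 0.668) and Msln of −0.63 (SE 1.01, edgeR adjusted p = 0.731), so neither passed the test. In control 5, with the most Upk3b and Msln of any library, Krt8 reached 2.30 CPM and Krt18 7.44 CPM, below every cKO library. The direction of both markers turned when control 5 was left out, to 0.57 for Upk3b and 0.35 for Msln, and in the Rps3a3-low set, to 2.68 and 1.74. Each passed the test in 0 of 17 alternatives.

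**Figure D3:**
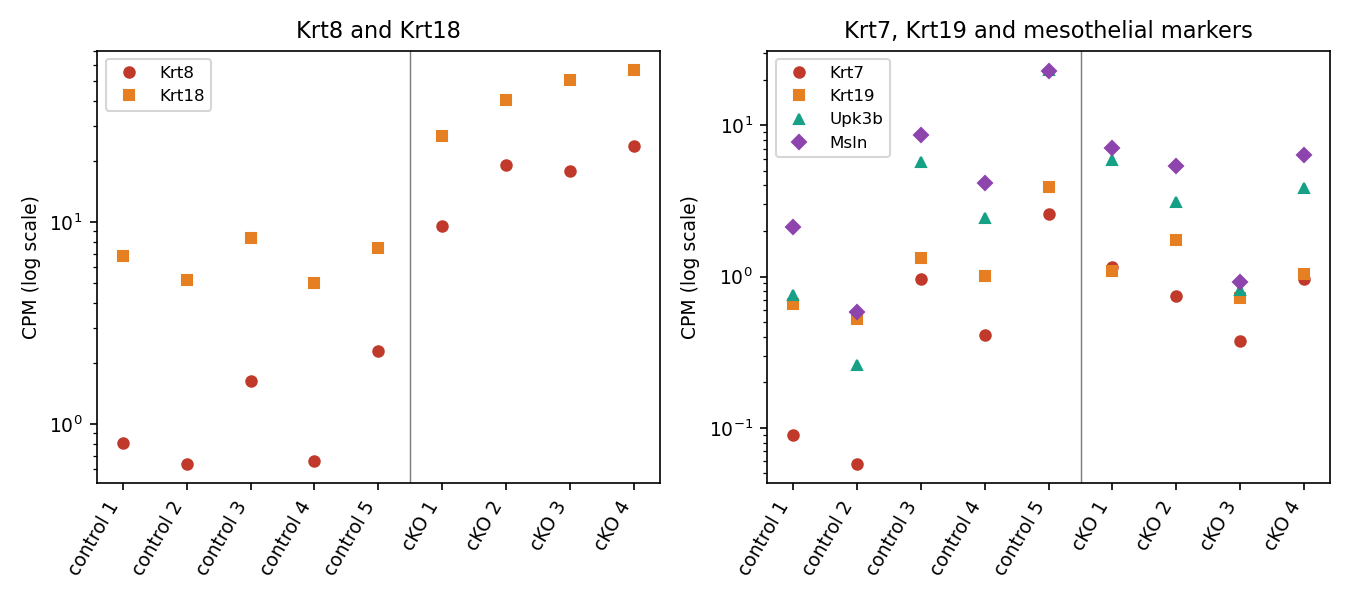
CPM on a log scale (y axis) in each library (x axis; the grey line parts control from cKO) of Krt8 and Krt18 on the left, and of Krt7, Krt19 and the mesothelial markers Upk3b and Msln on the right. On the left the cKO points lie above all controls, with Krt8 at 9.61 to 23.8 CPM; on the right control 5 is the highest for all 4 genes.

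Of the list of 11 epicardial and mesothelial markers, 10 were in the table and all 10 were tested. The median log2 fold change was −0.51, 1 gene was called higher and 0 lower, and the summed level ran from 93.6 to 189 CPM in control and from 109 to 154 CPM in cKO. The called gene was Tbx18, an epicardial transcription factor that mural cells also express, at 21.4 ± 2.60 CPM in control (SD, n = 5) and 32.2 ± 6.39 CPM in cKO (n = 4; log2 fold change 0.59, SE 0.13, edgeR adjusted p = 0.00973). It sat just past the fold threshold and fell under it in 5 of the 17 alternatives. Wt1, a transcription factor listed here as an epicardial marker, went the other way, at 21.6 ± 2.09 CPM in control and 16.4 ± 1.47 CPM in cKO (log2 fold change −0.40, SE 0.09, edgeR adjusted p = 0.0128), under 1.5-fold. Wt1 did not pass in the Rps3a3-low set (edgeR adjusted p = 0.227). There the controls were at 18.9 and 24.0 CPM and cKO at 16.9, 15.2 and 18.2 CPM. The part of these cells in the keratin levels was not tested.

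Most genes of a wider epithelial programme were at or near 0 in both groups. Of 22 listed genes, 8 were tested and the other 14 reached at most 0.377 CPM in any library. Epcam, the epithelial adhesion molecule, had no count in any cKO library (a count of 0 allows up to 3 counts, which is 0.0726 to 0.0970 CPM depending on the library) and averaged 0.0257 CPM in control. Cdh1, which encodes E-cadherin, averaged 0.0930 CPM in control and 0.0331 CPM in cKO. Esrp1, an epithelial splicing factor, was at 0 in all 9 libraries. Summed over the list, levels ran from 42.4 to 61.7 CPM in control and from 40.3 to 46.7 CPM in cKO. Most of it was Klf4, a factor that endothelium also expresses, at 28.8 to 52.8 CPM over the 9 libraries, followed by Grhl2, a grainyhead factor, at 2.83 to 4.43 CPM.

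Within that list 2 genes were called, both higher, with a median log2 fold change of 0.43 over the 8 tested. Esrp2, the paralogue of Esrp1, was at 0.787 ± 0.179 CPM in control (SD, n = 5) and 1.48 ± 0.229 CPM in cKO (n = 4), with no overlap (log2 fold change 0.91, SE 0.23, edgeR adjusted p = 0.0186). The call was lost in the Rps3a3-low set (edgeR adjusted p = 0.135) and without cKO 3. In that set the controls were at 0.903 and 0.492 CPM and cKO at 1.37, 1.38 and 1.83 CPM. With any library left out, the log2 fold change of Esrp2 lay between 0.78 and 0.98. Grhl3, a grainyhead factor of surface epithelia, was at 0.356 ± 0.0709 CPM and 0.822 ± 0.445 CPM, with overlap (log2 fold change 1.22, SE 0.38, edgeR adjusted p = 0.0466), and it failed the test in 11 of 17 alternatives, with an adjusted p of up to 0.291.

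Krt80, a type II keratin of epithelial cells, and Synm overlapped between the groups. Krt80 was at 2.62, 1.22, 1.25, 2.11 and 2.75 CPM in the controls, against 1.59, 2.94, 2.49 and 5.25 CPM in cKO. Only cKO 2 and cKO 4 lay above all controls. Its log2 fold change was 0.63 (SE 0.35), and 0.24 without cKO 4. Synm was at 6.11, 4.63, 5.46, 6.42 and 7.08 CPM in control and at 6.22, 6.84, 6.66 and 11.3 CPM in cKO, where cKO 4 alone exceeded the highest control. The log2 fold change was 0.39 (SE 0.19), and 0.15 without cKO 4. With group means removed, r between Krt80 and Synm was 0.90 over the 9 libraries, with cKO 4 the highest for both.

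Krt80 (chr15:101347444-101370162, minus strand) lies 40881 bases from Krt7 (chr15:101411043-101430313, plus strand), while Krt19 lies in the type I cluster at chr11:100140810-100148665 on the minus strand. Synm (chr7:67730160-67759742, minus strand) lies within the span of Ttc23 on the other strand. The strand setting of the counting is not given in the sources used here, so reads of Synm and Ttc23 may not be fully told apart.

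Vim (chr2:13573927-13582826, plus strand) was by far the most abundant of the 7 and the least variable. It was at 742, 760.3, 719, 755 and 727 CPM in the controls, against 821, 949, 854 and 975 CPM in cKO. Every cKO library lay above every control, by a small margin. The mean was 740.5 ± 17.6 CPM (SD, n = 5) in control and 899.9 ± 74.0 CPM (n = 4) in cKO, a log2 fold change of 0.28 (SE 0.06) or 1.22-fold, short of the fold threshold. The coefficient of variation among controls was 2.38% for Vim, 15.7% for Synm, 22% for Krt18, 36.8% for Krt80, 60.6% for Krt8, 93.7% for Krt19 and 128% for Krt7.

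Fibroblasts carry much of the tissue's vimentin. Of 9 fibroblast markers, 4 were higher at an adjusted p under 0.05 (Col1a1, Col1a2, Tcf21 and Postn), where 8.25% of tested genes were higher and 8.03% lower by that measure, and 0 passed the fold threshold in either edgeR or DESeq2. Their median log2 fold change was 0.14, and their summed level ran from 6997 to 8293 CPM in control and from 8632 to 9583 CPM in cKO. The other 5 did not pass, with log2 fold changes from −0.04 for Dcn to 0.14 for Col3a1. In the Rps3a3-low set Col1a2 and Postn passed and Col1a1 and Tcf21 did not (log2 fold change 0.36 and 0.44, edgeR adjusted p = 0.23 and 0.284). Their part in the Vim level was not tested. For endothelium (8 genes, median −0.04), mural cells (6 genes, median 0.13) and macrophages and leukocytes (8 genes, median 0.39), edgeR called 0 genes, with 2, 2 and 1 at an unadjusted p under 0.05, and DESeq2 called 0, 0 and 1. Of all genes tested between cKO and control, 29.7% had an unadjusted p under 0.05. The 2 endothelial genes, Tek and Erg, were lower at an adjusted p under 0.05 (log2 fold change −0.28 for each, SE 0.07, edgeR adjusted p = 0.0193 and 0.018) with no overlap, under 1.5-fold, and did not pass in the Rps3a3-low set (log2 fold change −0.23 and −0.19, edgeR adjusted p = 0.286 and 0.37). Summed levels of these lists were 1612 to 1734, 1782 to 1882 and 88.7 to 149 CPM in control and 1546 to 1685, 1776 to 2107 and 111 to 207 CPM in cKO.

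Markers of heart muscle defined the tissue in all libraries. The 8 cardiomyocyte genes summed to 46047 to 53977 CPM in control and 40535 to 45499 CPM in cKO, with a median log2 fold change of −0.18, 2 lower at an adjusted p under 0.05 and 0 called by edgeR or DESeq2 (5 at an unadjusted p under 0.05, beside 29.7% of tested genes). Of 6 genes that mark atrium in older hearts, 2 were called, both higher, beside a median of 0.01. They were Nppa, the atrial natriuretic peptide (114 ± 9.18 CPM in control, 1721 ± 724 CPM in cKO, log2 fold change 3.92, SE 0.32, edgeR adjusted p = 0.000121), and Myl7, the atrial light chain (44.8 ± 14.3 and 103 ± 14.1 CPM, log2 fold change 1.20, SE 0.22, edgeR adjusted p = 0.00493). Nppa missed the threshold in the Rps3a3-low set (edgeR adjusted p = 0.0625). There the controls were at 121 and 108 CPM of Nppa and cKO at 711, 1841 and 1902 CPM. Sln, a defining atrial gene, was at 5.72 ± 3.24 CPM in control and 2.43 ± 2.58 CPM in cKO (edgeR adjusted p = 0.262). Its cKO libraries had 6.28, 1.33, 1.30 and 0.823 CPM, and its adjusted p was under 0.05 in 1 of 17 alternatives, without cKO 1. Tbx5 was lower in cKO (log2 fold change −0.57, SE 0.10, edgeR adjusted p = 0.00233), under 1.5-fold, with an adjusted p under 0.05 in all 17 alternatives. Whether atrial tissue had a part in the keratin levels was not tested.

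Among the 14 other intermediate filament genes and lamins listed, 10 were tested, 1 was called higher and 1 lower, with a median log2 fold change of 0.27. Sync, which encodes syncoilin, a muscle filament protein that binds desmin and the dystrophin complex, fell from 11.2, 13.2, 11.2, 9.0 and 9.47 CPM in control to 2.77, 2.94, 2.61 and 2.03 CPM in cKO. The groups did not overlap (log2 fold change −2.06, SE 0.16, edgeR adjusted p = 4.88e-06), and the test was passed in all 17 alternatives. Bfsp2, a beaded filament protein known from the eye lens, rose from 0.179 ± 0.131 CPM (SD, n = 5) to 0.987 ± 0.268 CPM (n = 4; log2 fold change 2.43, SE 0.43, edgeR adjusted p = 0.00255). These values rest on 1 to 13 counts in a control library and 29 to 47 in a cKO library. Bfsp2 missed the test in the Rps3a3-low set (edgeR adjusted p = 0.0709).

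Des, the desmin gene, was at 906, 809.6, 746, 727 and 721 CPM in control and at 846, 1228, 1041 and 1079 CPM in cKO. The groups overlapped through control 1 and cKO 1, and the log2 fold change was 0.42 (SE 0.10, edgeR adjusted p = 0.0152), under 1.5-fold. In the Rps3a3-low set the adjusted p was 0.393. Nes, the nestin gene, was at 174 ± 18.4 CPM in control and 164 ± 10.2 CPM in cKO (log2 fold change −0.08, SE 0.08, edgeR adjusted p = 0.552).

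**Figure D4:**
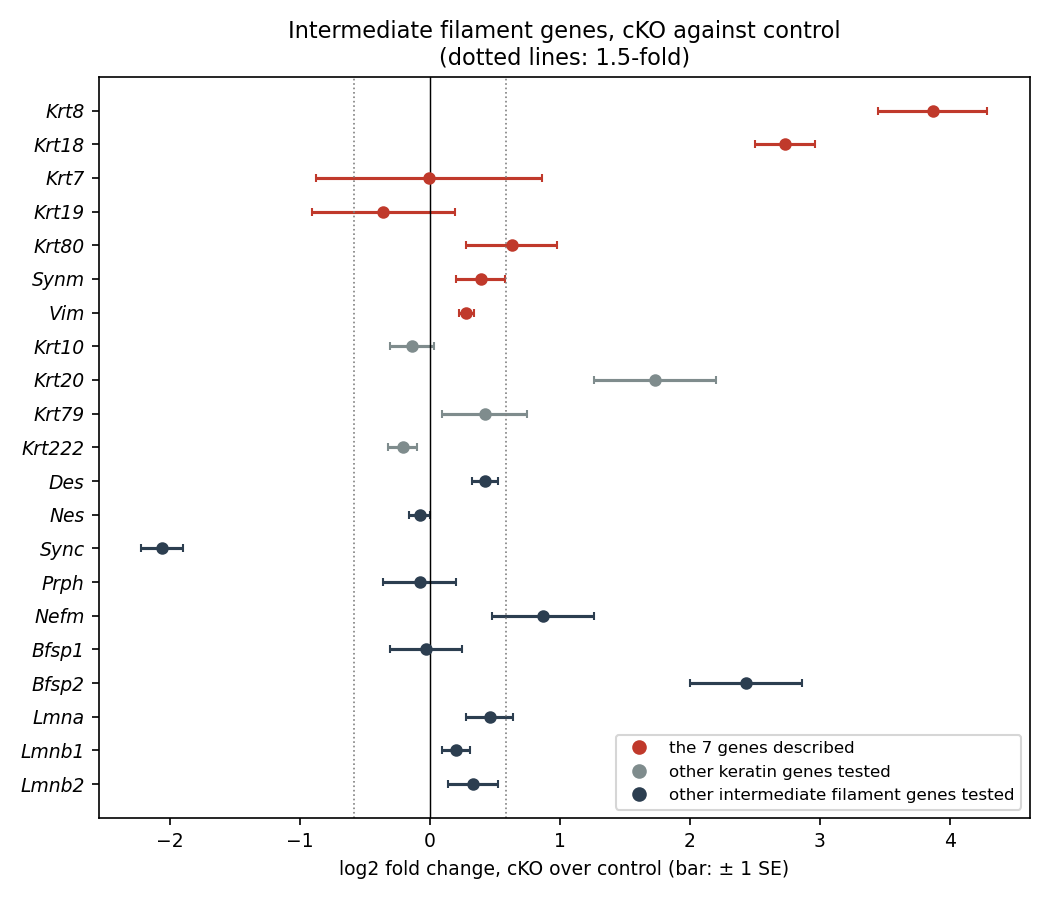
Log2 fold change of cKO over control (x axis; points with bars of ± 1 SE; dotted lines at 1.5-fold) for the 7 genes (red), the other keratins tested (grey) and the other intermediate filament genes and lamins tested (dark). Krt8 at 3.87 and Krt18 at 2.73 lie farthest to the right and Sync at −2.06 farthest to the left, while Krt7 has the widest bar.

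Genes that anchor or regulate these filaments were listed as well. Of 23 plakin, desmosome and hemidesmosome genes, which fasten filaments to cell junctions, 16 were tested and 0 were called by edgeR or DESeq2, with 7 at an unadjusted p under 0.05 (29.7% of tested genes), a median log2 fold change of −0.04 and summed levels of 3415 to 3533 CPM in control and 3390 to 3445 CPM in cKO. Dsp, the desmoplakin gene, was at 866 ± 24.5 CPM in control and 763 ± 45.2 CPM in cKO, with no overlap (log2 fold change −0.18, SE 0.06, edgeR adjusted p = 0.0522). Its adjusted p was under 0.05 in 2 of 17 alternatives, DESeq2 and RLE scaling. Of 14 genes for proteins that bind or regulate keratins, such as 14-3-3 proteins and chaperones, 0 were called by either tool and 4 had an unadjusted p under 0.05 (29.7% of tested genes), with a median of −0.02. Trap1, a mitochondrial chaperone, was lower under 1.5-fold (185 ± 6.30 CPM in control and 150.2 ± 7.41 CPM in cKO, log2 fold change −0.30, SE 0.06, edgeR adjusted p = 0.00309), with a like log2 fold change in the Rps3a3-low set that did not pass (−0.31, SE 0.08, edgeR adjusted p = 0.0693). Ywhae, a 14-3-3 gene, was also lower under 1.5-fold (586 ± 24.4 CPM in control and 507 ± 3.46 CPM in cKO, no overlap, log2 fold change −0.21, SE 0.05, edgeR adjusted p = 0.0188). In the Rps3a3-low set its value was −0.14 (SE 0.07, edgeR adjusted p = 0.34).

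The 13 genes of desmin and synemin partners were all tested, with a median of 0.06. Sync was the single call, made by both tools. By adjusted p alone 2 were higher, Des and Cryab, and 2 lower, Sync and Tln2. Cryab, the small heat shock protein that guards desmin, was at 540.3 ± 46.9 CPM in control (SD, n = 5) and 719 ± 54.0 CPM in cKO (n = 4), with no overlap (log2 fold change 0.41, SE 0.08, edgeR adjusted p = 0.00336), under 1.5-fold. In the Rps3a3-low set it did not pass (log2 fold change 0.26, SE 0.09, edgeR adjusted p = 0.167), and Tln2 passed in 8 of 17 alternatives.

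The differences between library sets and between sexes were not used to choose the genes and could be tested. Between the Rps3a3-high and Rps3a3-low libraries, with genotype in the model, edgeR called 287 of 15318 tested genes (1.87%) and 0 of the 7. DESeq2 called 442 genes and 1 of the 7. At an unadjusted p under 0.05 stood 3 of the 7 and 24.5% of all tested genes. Krt7 had the largest set difference, a log2 fold change of 2.08 (SE 0.88, edgeR adjusted p = 0.186) toward the high set. In DESeq2 the Krt7 value was 2.71 (SE 0.72, DESeq2 adjusted p = 0.00456). Krt19 followed at 1.03 (SE 0.58, edgeR adjusted p = 0.303) and Krt8 at 0.81 (SE 0.35, edgeR adjusted p = 0.198). Synm had 0.46 (SE 0.15, edgeR adjusted p = 0.088, DESeq2 adjusted p = 0.0461), Krt80 0.55 (SE 0.33, edgeR adjusted p = 0.325) and Krt18 0.35 (SE 0.22, edgeR adjusted p = 0.355). Vim had 0.04 (SE 0.06, edgeR adjusted p = 0.733).

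Between Xist-high and Xist-low libraries edgeR called 0.0457% of tested genes and 0 of the 7, with 0 at an unadjusted p under 0.05 and 0 called by DESeq2. The log2 differences toward the Xist-high libraries ran from −0.85 (SE 0.51) for Krt19 to 0.37 (SE 0.20) for Krt18, with 0.24 (SE 0.42) for Krt8 and 0.02 (SE 0.07) for Vim.

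**Figure D5:**
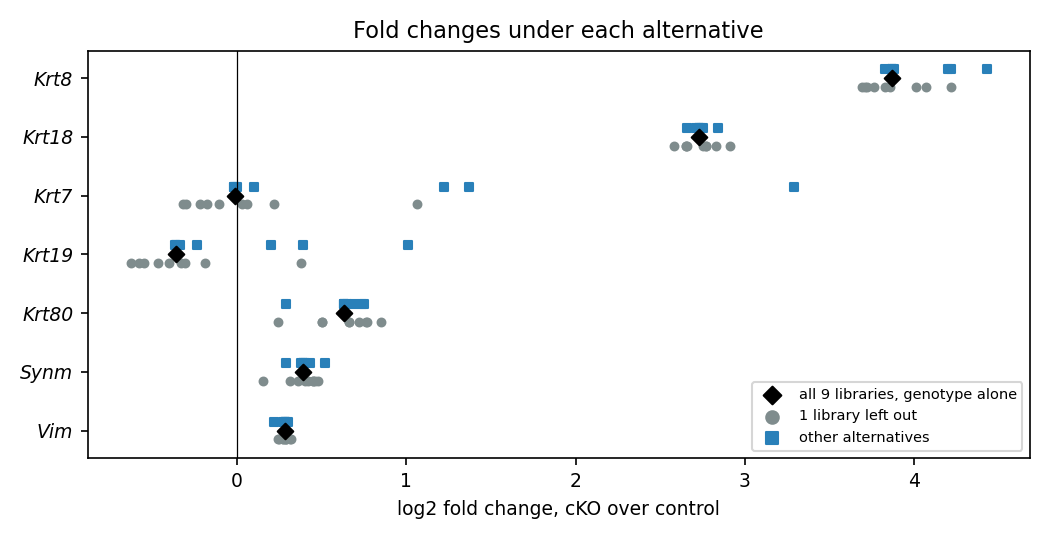
Log2 fold change of cKO over control (x axis) of each gene with all 9 libraries (black), with each library left out (grey) and under the other alternatives (blue). Krt8 and Krt18 stay at or above 2.58 throughout, whereas Krt7 spans −0.32 to 3.29.

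Krt8 and Krt18 were set beside their neighbourhood. Within 100000 bases on either side of the pair the table lists 8 genes, of which 4 besides the pair were tested, and 0 of these were called by edgeR or DESeq2, with 1 at an unadjusted p under 0.05 (29.7% of tested genes). Krt79 had a log2 fold change of 0.42, Spryd3 of 0.11 (SE 0.09, edgeR adjusted p = 0.485) and Eif4b, a translation initiation factor, of −0.06 (SE 0.06, edgeR adjusted p = 0.54). Tns2, which encodes tensin 2, was lower under 1.5-fold, at 131 ± 20.0 CPM in control and 101 ± 12.3 CPM in cKO (log2 fold change −0.38, SE 0.11, edgeR adjusted p = 0.0391), and passed the test in 10 of 17 alternatives. The keratin genes Krt4 and Krt78, also in the window, had at most 4 counts in a library.

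Within groups, the genes most like Krt8 over the 9 libraries with group means removed were Slc2a13 (r = 0.97), Mfsd4b1 (0.96), Acot11 (0.93), Sdk2 (0.93) and Cage1 (0.92). Those most like Krt18 were Rims4 (r = 0.94), Nufip1 (0.93), Pigl (0.93), Cd3eap (0.92) and Hdac8 (0.92). None of these 10 moved between the groups as the keratins did, with log2 fold changes from −0.19 to 0.29. Krt18 ranked 39 of 13235 genes in likeness to Krt8 (r = 0.83), and Krt8 ranked 54 to Krt18. All points share their libraries and the depth of these.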

How the data were processed

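RNA from P7 mouse ventricles was measured in 9 libraries (5 control, 4 cKO). The study's methods and a legend differ in the number of controls, and every library labelled as control was used. The authors deposited raw counts per gene, and 0 sample columns were left unused. Per the study's methods, stranded mRNA libraries were sequenced as single-end reads of 75 bases and mapped to mm10. The submitters' processing notes name STAR 2.4.2a and HTSeq 0.6.1. The annotation and strand setting are not given in the sources used here.

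Symbols and coordinates came from GENCODE M21 on GRCm38 (36345 of 38293 identifiers, 99.82% of counts) and promoter sequences from RefSeq on GRCm38.p6. Counts were tested in R 4.3.3 with edgeR 4.0.16 (filterByExpr minimum 10, TMM, robust quasi-likelihood F test, genotype alone), with Benjamini-Hochberg adjustment over 15318 genes. Calls needed an adjusted p below 0.05 with more than 1.5-fold, the thresholds in the study's methods. The SE was derived from each fold change and F statistic. The scripts were tested on simulated data. Depth, 31011055 to 40073801 counts a library, puts 3 counts at 0.0726 to 0.0970 CPM, and such floors cover counting error only. The correlations use log2 CPM with a prior count of 2.

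Library sets and sex were split at 10 CPM of Rps3a3 and Xist. The 7 genes, the lists and the library sets were chosen with earlier results of these data known. Named genes are the 7, other keratins that passed the filter or averaged 0.5 CPM, up to 3 called genes of a list, fixed markers, and the 5 genes most like Krt8 or Krt18. Dsp, Trap1, Ywhae, Klf4, Grhl2, Cryab, Sln, Tbx5, Tek, Erg and the neighbours, along with genes given as passing an adjusted p alone, were named after their values were seen. Y-linked genes were listed as a check of sex, with 0 to 302 CPM summed in control, 0 to 252 in cKO and 0 of 4 called (0 at an unadjusted p under 0.05, 0 by DESeq2). Alternatives were DESeq2 1.42.0, RLE and upper-quartile scaling, no filter, the replicate number, library set or sex as a term, the Rps3a3-low libraries alone, and each library left out.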

Additional observations from a re-analysis of the deposited data

Results flagged for a closer look

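In 6 of the 52 groups of libraries examined, for 26 named genes, a single library stood apart from the rest of its group. For normally distributed values chance flags about 1 in 20 such groups; the rate for these values was not measured. Control 5 stood above the other controls for Krt19, at 3.91 CPM against 0.521 to 1.33, and for Upk3b, at 23.0 CPM against 0.261 to 5.68. Synm was at 11.3 CPM in cKO 4 and at 6.22 to 6.84 CPM in the other cKO libraries. Esrp2 was at 1.83 CPM in cKO 3 and at 1.36 to 1.38 CPM in the others, and Cdh1 was at 0.133 CPM in cKO 2 and at 0 in the other 3. Krt222 was lowest in control 1, at 24.5 CPM against 30.7 to 31.9 CPM in the other controls.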

How the results depend on the processing

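Krt8 and Krt18 were called in all 17 alternatives. Krt7 was called as well in the Rps3a3-low libraries alone. The 7 genes were selected on this contrast, so their calls here and in the block fit below are descriptions and carry no test. Genes called numbered 1030 with all libraries, 909 to 1171 with a library left out and 620 (313 higher, 307 lower) in the Rps3a3-low libraries, of which 518 were shared with the 1030. That set has 5 libraries. There Krt7 was at 3.29, Krt19 at 1.01 and Krt10 at 0.15 (log2 fold change), and calls fell to 1 for the non-keratin filament list, 1 for the atrial list and 0 for the epithelial list. With a library left out, log2 fold changes ran from 3.69 to 4.22 for Krt8, 2.58 to 2.91 for Krt18, −0.32 to 1.06 for Krt7, −0.63 to 0.38 for Krt19, 0.24 to 0.85 for Krt80, 0.15 to 0.48 for Synm and 0.24 to 0.32 for Vim. Upk3b ran from −1.30 to 0.57 and Msln from −0.93 to 0.35. Calls then ran from 0 to 2 for the epithelial list, 0 to 1 for the epicardial list, 0 to 1 for fibroblasts (Col1a1, without control 1), 0 to 2 for macrophages (Adgre1 and Lyz2, without cKO 4) and 2 to 4 for the atrial list. The epithelial list had 3 calls with library set as a term (Klf5 added) and 1 with sex as a term, the epicardial list 0 with no filter, and macrophages 1 (Lyz2) in DESeq2. The library set term called 442 genes in DESeq2 against 287 in edgeR. Upk3b and Msln changed sign with library set as a term (0.96 and 0.68), in the Rps3a3-low libraries (2.68 and 1.74) and without control 5 (0.57 and 0.35). The causes were not tested.

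Same-numbered control and cKO libraries share only a number: the correlations of their deviations from the group means were 0.023, 0.036, 0.011 and 0.232 for numbers 1 to 4, and control 5 has no partner. With the replicate number as a block, log2 fold changes were 4.22 for Krt8, 2.75 for Krt18, 1.37 for Krt7, 0.39 for Krt19, 0.74 for Krt80, 0.43 for Synm and 0.27 for Vim. In this block fit Upk3b was at 1.05 and Msln at 0.70, the epithelial list had 1 call, Krt20 was at 1.67 (edgeR adjusted p = 0.0551), and 2 of the 7 genes were called. Depth limits Krt7 in controls 1 and 2, and Krt20 and Bfsp2 in the controls, which rest on a few counts.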
